A study of Homo sapiens with 28 samples.

Results

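Very broad H3K27ac domains were chosen by their width, as the peaks of the hypoxia H3K27ac list on chromosomes 1 to 22 and X that measured 10000 bp or more. There were 1007 of them among 46713 hypoxia H3K27ac peaks (2.16%), and they held 16.8% of the bases under that mark, 17.1 Mb in all. The peaks came from chromatin immunoprecipitation sequencing (ChIP-seq) of T47D cells, a human line of luminal breast cancer that expresses the oestrogen receptor. H3K27ac, ZHX2 and CTCF were each immunoprecipitated in normoxia and in hypoxia, and Flag was immunoprecipitated in hypoxia from cells with WT or PA ZHX2, in 2 samples a group. The oxygen level, the length of the hypoxia and what the PA form changes are not given in the sources used here. Per the labels' protocols, cells infected with lentivirus were selected with hygromycin or puromycin. Each group had 1 deposited peak list and no values per sample, so differences between conditions had no replicate check and carry no test. Intervals are exact 95% intervals over peaks or domains and cover counting error only.

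H3K27ac is the acetylation of lysine 27 of histone H3, and it marks active promoters and enhancers. Long stretches of it, such as those called stretch enhancers, are known to lie at genes that define the identity of a cell. ZHX2 has zinc fingers and homeodomains, and CTCF binds DNA at the anchors of chromatin loops.

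The width was the rule itself, so widths and strengths of the hypoxia list are given as a description. The domains had a median width of 13.8 kb, with quartiles of 11.46 and 18.66 kb and the widest at 112.64 kb. Of the 1007, 599 were 10 to 15 kb wide, 190 were 15 to 20 kb and 218 were 20 kb or more, of which 17 reached 50 kb. The authors' fold enrichment, their value for the height of a peak over background, had a median of 16.87 in the domains and 4.292 in the narrower H3K27ac peaks. No gap set the domains apart at the threshold. The 3 widest peaks outside it lay at CCNG2 (9999 bp), JARID2 (9998 bp) and KRT80 (9993 bp), and the 3 narrowest inside it at EPN2 (10008 bp), NXNL2 (10020 bp) and LOC105370886 (10028 bp). Normoxia peaks covered 89.2, 99.5 and 96.5% of the first 3 and 100, 100 and 82.9% of the others.

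The sequences just before the starts of 6 genes in domains are shown, because these domains carry the contrasts described further on. FOXA1 (chr14:37595250-37595499, minus strand) and XBP1 (chr22:28800570-28800819, minus strand) are luminal transcription factor genes whose domains were almost wholly acetylated in both conditions. BHLHE40 (chr3:4979187-4979436), PFKFB3 (chr10:6202682-6202931), ANGPTL4 (chr19:8363905-8364154) and ALDOA (chr16:30065510-30065759), all on the plus strand, are hypoxia-induced genes. Each run is the 250 bases before a RefSeq gene start (GRCh38.p14), with ACGTG and GCGTG, the cores of the hypoxia response element, in capitals on either strand, so that CACGT and CACGC mark the opposite strand and CACGTG holds the core on both.
FOXA1: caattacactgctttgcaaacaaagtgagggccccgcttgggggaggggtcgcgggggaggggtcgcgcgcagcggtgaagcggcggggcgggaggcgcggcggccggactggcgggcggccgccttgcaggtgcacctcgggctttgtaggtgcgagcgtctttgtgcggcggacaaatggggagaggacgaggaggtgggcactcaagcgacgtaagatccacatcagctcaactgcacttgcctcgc
XBP1: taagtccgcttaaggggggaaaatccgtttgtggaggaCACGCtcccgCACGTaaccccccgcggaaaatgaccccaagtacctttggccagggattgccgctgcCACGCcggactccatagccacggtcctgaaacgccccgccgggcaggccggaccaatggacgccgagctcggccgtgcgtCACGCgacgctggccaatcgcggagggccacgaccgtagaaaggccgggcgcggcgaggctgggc
BHLHE40: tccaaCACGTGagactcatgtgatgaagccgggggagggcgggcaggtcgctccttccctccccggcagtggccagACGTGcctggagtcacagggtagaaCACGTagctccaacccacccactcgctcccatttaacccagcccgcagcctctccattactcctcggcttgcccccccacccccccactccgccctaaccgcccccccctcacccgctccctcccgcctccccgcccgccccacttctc
PFKFB3: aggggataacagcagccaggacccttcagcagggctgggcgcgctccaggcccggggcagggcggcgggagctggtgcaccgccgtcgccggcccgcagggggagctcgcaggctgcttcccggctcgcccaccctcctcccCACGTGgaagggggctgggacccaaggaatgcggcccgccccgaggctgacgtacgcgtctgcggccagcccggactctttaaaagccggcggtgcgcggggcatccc
ANGPTL4: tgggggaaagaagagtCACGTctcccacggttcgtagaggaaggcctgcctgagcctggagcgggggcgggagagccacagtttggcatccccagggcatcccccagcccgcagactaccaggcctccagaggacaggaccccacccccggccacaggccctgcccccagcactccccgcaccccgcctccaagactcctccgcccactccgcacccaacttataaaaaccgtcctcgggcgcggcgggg
ALDOA: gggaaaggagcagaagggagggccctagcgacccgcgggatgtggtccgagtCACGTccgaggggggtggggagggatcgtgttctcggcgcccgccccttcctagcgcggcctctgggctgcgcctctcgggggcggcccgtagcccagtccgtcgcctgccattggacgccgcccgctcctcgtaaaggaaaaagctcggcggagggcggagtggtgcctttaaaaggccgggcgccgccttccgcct
The FOXA1 run held neither core. XBP1 held 1 ACGTG and 3 GCGTG, BHLHE40 held 4 ACGTG, PFKFB3 held 2 and ANGPTL4 and ALDOA held 1 each, with both strands counted. Over promoters that ran from 250 bases before to 50 bases after a start, ACGTG was found in 208 of 973 in domains (21.4%) and in 4461 of all 22132 (20.2%), and GCGTG in 40.3% and 38.2%. The domains' promoters held a median of 20 CpG dinucleotides against 16 in all promoters. Exact matches to the full palindromic oestrogen response element were in 0 of the 973 and 6 of the 22132 (0.0271%), and to a CTCF consensus in 0 and 3 (0.0136%). A hypoxia ZHX2 summit, the highest point of a peak, lay 170 bp from the FOXA1 start, 173 bp from XBP1, 228 bp from BHLHE40, 98 bp from PFKFB3, 176 bp from ANGPTL4 and 262 bp from ALDOA. In normoxia the nearest ZHX2 summit lay 133 bp from FOXA1, 86 bp from XBP1, 796 bp from BHLHE40 and 93 bp from PFKFB3, but 25833 bp from ANGPTL4 and 10602 bp from ALDOA.

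The domains lay at 824 of 19974 protein-coding genes by the position of a gene start (4.13%), while 61.1% of these genes started under an H3K27ac peak of any width. The bodies of 1061 genes (5.31%) touched a domain. Of the domains, 586 (58.2%) held at least 1 protein-coding start: 419 held 1, 109 held 2, and 58 held 3 or more, up to 7. Another 332 overlapped a protein-coding or long noncoding RNA gene without holding a protein-coding start, and 89 overlapped neither. The domains were often neighbours, with 423 (42.0%) within 50 kb of another. As a share of a chromosome's H3K27ac peaks they were most frequent on chromosomes 17 (3.27%), 11 (3.21%) and 16 (3.05%) and least on 4 (0.968%), 13 (1.07%) and X (1.09%).

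The genes of the luminal lineage were the ones most often inside a domain among the lists examined. Of 30 luminal transcription factors, 18 (60.0%) started in a domain, beside 4.13% of all protein-coding genes. The widest H3K27ac peak at their starts had a median of 18.9 kb, against 1.71 kb over all protein-coding genes. Of 10 luminal breast markers 8 started in a domain, and KRT8 and EPCAM did not. Of the 8, ESR1, GATA3, FOXA1, PGR, XBP1 and SPDEF were already counted among the luminal factors. Only the keratins KRT18 and KRT19 were further genes. None of the 8 basal and myoepithelial markers started in one, and 7 of them, KRT5, KRT14 and TP63 included, had no H3K27ac peak at a start, with ACTA2 under one of 4.89 kb. None of the 8 immune and stromal markers did either, with 2 under a narrower peak (CD3E, 3.98 kb, and CD68, 9.5 kb). Of the luminal factors 16 of the 18 were placed by a start in the promoter table, and TRPS1 and GRHL2 by either annotated end, as were the keratins KRT18 and KRT19.

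FOXA1, a pioneer factor that opens chromatin for the oestrogen receptor, had the highest authors' fold of all domains, 54.2 over 22.2 kb (chromosome 14, 37579429 to 37601648), shared with the start of TTC6. GATA3, a zinc finger factor of luminal differentiation, had a fold of 46.3 over 35.5 kb (chromosome 10, 8044554 to 8080093). TFAP2A, an AP-2 factor, had a fold of 45.2 over 28.5 kb. The others of the 5 highest were TNRC18 (48.2), a chromatin protein gene, and BHLHE40 (45.0), a hypoxia-induced repressor that also acts in the circadian clock. XBP1, a factor of the secretory pathway, lay in 49.1 kb and TRPS1, a GATA-type repressor, in 65.5 kb. RARA, the retinoic acid receptor alpha gene, lay in 59.4 kb. ESR1, which encodes the oestrogen receptor, started in 2 domains, of 34.0 kb at upstream starts and of 13.6 kb at the start 151807682 on chromosome 6.

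All 18 luminal factors had a domain covered by at least 90% in normoxia, as were 788 of all 1007 domains (78.3%), against 45.4% of all hypoxia H3K27ac peaks. The coverage was 91.6% at the lowest (TFAP2A), with a median of 99.6%. FOXA1 and ESR1 lay under normoxia peaks wider than their own, of 59.6 and 58.1 kb. Factors outside the domains that started under narrower peaks included TFAP2C (7.77 kb), ZNF703 (7.66 kb), MYB (6.3 kb), ELF5 (5.86 kb), TBX3 (5.5 kb) and GRHL1 (4.83 kb). TFAP2B, KLF5, CREB3L1 and BHLHE41 had no H3K27ac peak at a start.

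The widest domain of all lay at PRLR, the prolactin receptor gene, at 112.6 kb (chromosome 5, 35122392 to 35235029). The other 9 of the 10 widest lay at LOC124905135 on chromosome 22 (79.7 kb), BCAR3, an adaptor linked to antioestrogen resistance (79.4 kb), ARHGAP35 (76.7 kb), TRPS1, BCL2L1, a regulator of apoptosis (63.9 kb), LURAP1L (59.7 kb), RARA, MYOF (59.3 kb) and the body of GREB1, an oestrogen-induced cofactor gene (57.9 kb). Among 26 oestrogen receptor targets 11 (42.3%) started in a domain, beside 4.13% of all protein-coding genes. CCND1, SIAH2, STC2, CA12, MREG and PGR were among the 11, whose domains had a median coverage in normoxia of 98.8%. TFF1, the classical oestrogen-induced gene, did not start in a domain.

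In the other lists GREB1, CCND1, KRT13, KRT15, IER3, MCL1, ZFP36L2, KLF10, NEAT1, PVT1, HOTAIR, DSCAM-AS1, ACTB, DUSP4, ERBB3, HILPDA, JMJD6 and the 5 HOX genes were placed by either annotated end. Beside each of these lists, 61.1% of all protein-coding genes started under H3K27ac of any width and 4.13% in a domain. The long noncoding RNA genes are not among these genes, and no share over all genes of that kind was computed. All 40 chromatin regulators and corepressors started under H3K27ac of some width. Of these 8 (20%) started in a domain, among them MED13L in 53.9 kb, KDM4B in 33.6 kb, GSE1 in 23.4 kb, TNRC18, ARID1A and BRD2. Of 28 immediate early genes 7 (25%) did, JUNB, IER3, MCL1, ZFP36, ZFP36L1, ZFP36L2 and KLF10. Of 20 long noncoding RNA genes 8 (40.0%) did, including MALAT1 in 43.6 kb, NEAT1 in 32.9 kb, PVT1 in 30.5 kb, HOTAIR, MIR210HG and DSCAM-AS1. Of 24 abundantly transcribed genes 8 did (33.3%), ACTB, GAPDH and EEF1A1 among them, and of 86 cytosolic ribosomal protein genes 11 did (12.8%), RPL3 and RPS18 included. Their domains were short, with medians of 12 and 12.5 kb. Among 69 replication-dependent histone genes 24 started in 7 domains of 10.1 to 18.8 kb, since these genes lie in clusters. Of 34 signalling receptors and feedback regulators 4 did (PRLR, DUSP4, ERBB3 and ERRFI1), and of 12 MYC network genes 2 did (MLX and MNT). Of 17 keratins 5 did, in 3 domains, with KRT13, KRT15 and KRT19 in the same 46.9 kb. Of 39 HOX genes 5 did, HOXC9, HOXC10 and HOXC11 in 35.9 kb and HOXB2 and HOXB3 in 10.3 kb.

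Most of the domains were acetylated in normoxia too. Normoxia H3K27ac peaks covered 94.0% of the bases in domains and left 1.02 Mb uncovered. All 1007 domains overlapped a normoxia peak, as did 80.6% of the hypoxia H3K27ac peaks of all widths. Normoxia coverage reached 90% in 788 domains and was under 50% in 6. A single normoxia peak matched 704 domains, 2 matched 199 and 3 or more matched 104. In 838 domains (83.2%, interval 80.8 to 85.5%) a normoxia peak was itself 10 kb or more wide. The 169 others were mostly near the threshold: 141 were under 15 kb wide, and in 86 the widest normoxia peak measured 8 to 10 kb. The reverse comparison, which starts from 1023 normoxia peaks of 10 kb or more, gave close values, with 94.6% of their bases covered in hypoxia, 0.913 Mb uncovered and 838 overlapping a hypoxia peak of that width (81.9%, 79.4 to 84.2%). Coverage by the other condition was higher for wider hypoxia peaks, at 68.5% of the bases under 2 kb, 87.5% at 2 to 5 kb, 90.1% at 5 to 10 kb, 93.1% at 10 to 15 kb and 95% at 20 kb or more.

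**Figure D1:**
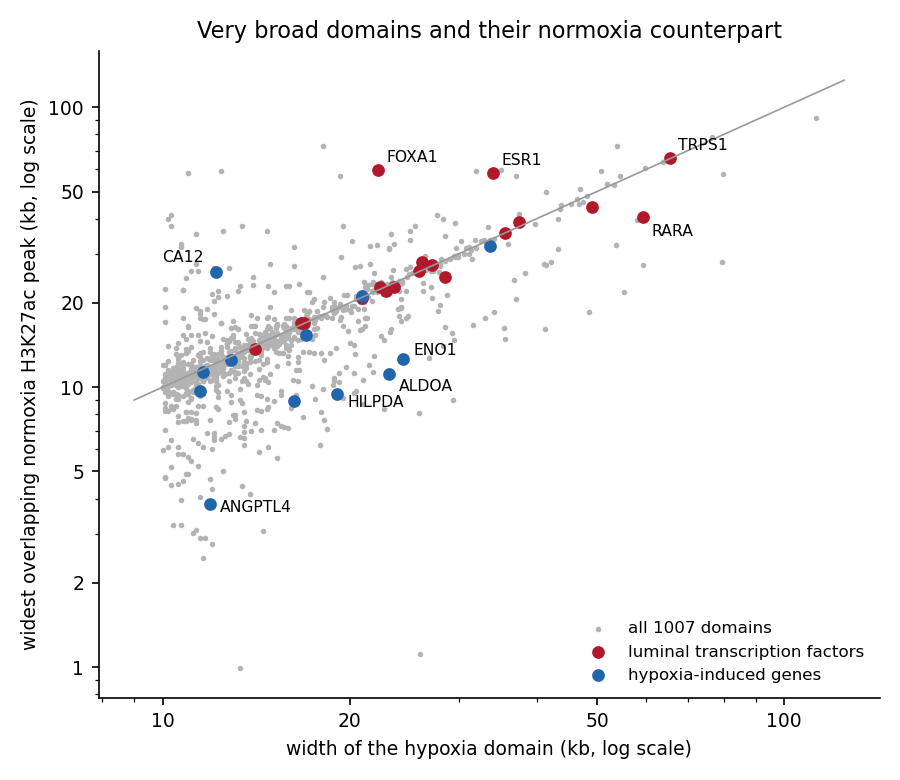
Width of each hypoxia domain in kb (x, log scale) against the widest normoxia H3K27ac peak that overlaps it in kb (y, log scale). Grey points are the 1007 domains, red points those at luminal transcription factors, blue points those at hypoxia-induced genes, and the line marks equal width. Among the luminal factors FOXA1 and ESR1 lie above the line and RARA below it, and among the hypoxia-induced genes CA12 lies above it and ANGPTL4, ALDOA, HILPDA and ENO1 below it.

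Genes known to be induced by hypoxia had domains with a lower median coverage in normoxia. Of 41 such genes, 39 started under H3K27ac and 12 (29.3%) in a domain, beside 61.1 and 4.13% of all protein-coding genes. The coverage of the 12 domains in normoxia had a median of 90.1% and ran from 42.0 to 100%, beside a median of 96.7% over all 1007 domains, and was under 90% in 5, while 78.3% of all domains reached 90%. The lowest was that of ANGPTL4, a secreted inhibitor of lipoprotein lipase (chromosome 19, 8359514 to 8371374). Its domain measured 11.9 kb in hypoxia, and 2 normoxia peaks, the wider of 3.83 kb, covered 42.0% of it. ALDOA, the glycolytic aldolase (chromosome 16, 30056839 to 30079908), was covered by 67.9% of 23.1 kb, in 3 normoxia peaks, and a stretch of 3.92 kb inside it was acetylated in the hypoxia list alone. HILPDA, a lipid droplet protein gene, was covered by 73.8%, ENO1, the glycolytic enolase, by 83.1%, and JMJD6, a hydroxylase gene, by 88.5%. PFKFB3, a regulator of glycolytic flux (90%), and SLC16A3, a lactate exporter (90.2%), lay near the median of the list. At the other end STC2 (100%), CA12 (99.9%), KLF10 (96.7%), BHLHE40 (96.5%) and KDM4B (95.6%) were covered nearly throughout. STC2, CA12 and KDM4B were also in the list of oestrogen receptor targets. Members outside the domains included CA9 (0.874 kb), EGLN3 (1.03 kb), NDRG1 (2.87 kb), VEGFA (7.72 kb) and PFKFB4 (9.09 kb). SLC2A1, the glucose transporter gene, started under 8.56 kb but held in its body a domain of 25.9 kb that was covered by 78.2%.

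Of 17 glycolysis genes 5 started in a domain, beside 4.13% of all protein-coding genes. Coverage was less than 90% in 4 of the 5, ALDOA, PKM (82.5%), ENO1 and GAPDH (84.3%), while 78.3% of all domains reached 90%. HK1 was at 98.9%. ALDOA and ENO1 were in both lists. MIR210HG, the host gene of the hypoxia-induced microRNA miR-210, was covered by 76.4%. The domain at HIF1A-AS3, beside the HIF1A gene, was covered by 54.3% of 10.7 kb. Some abundantly transcribed and ribosomal protein genes were also among the less covered: 3 of the 8 domains of the former and 4 of the 11 of the latter were under 90%, the coverage that 78.3% of all domains reached, ACTB at 87.3%, FLNA at 87.1%, RPL3 at 80.4% and RPLP2 at 73.5%.

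**Figure D2:**
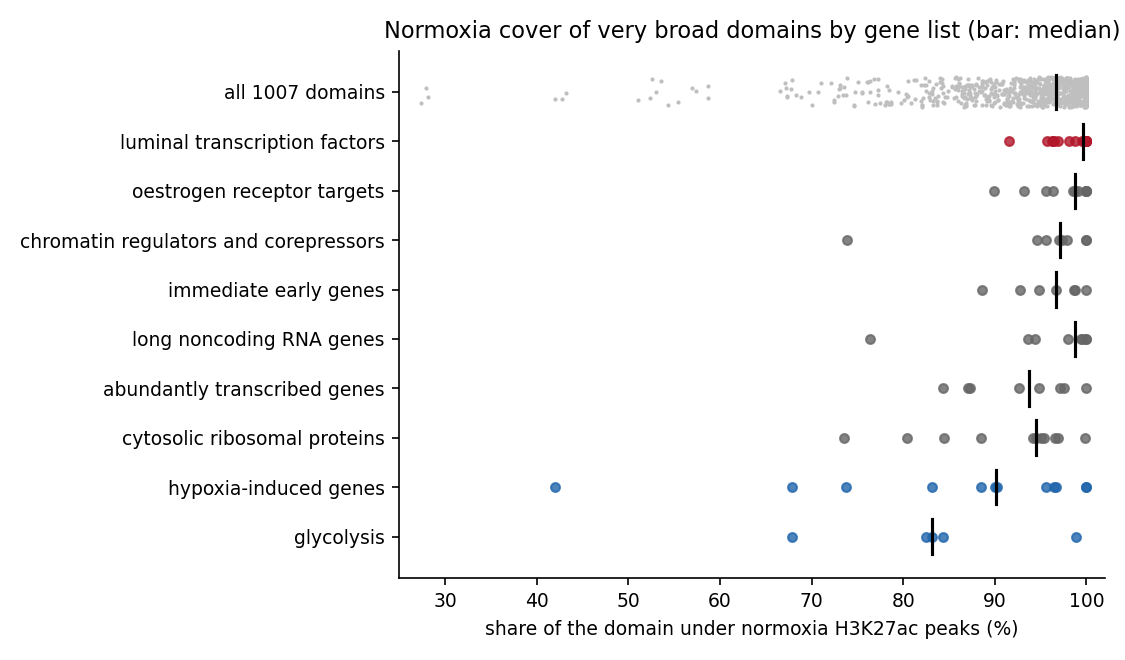
Share of each domain under normoxia H3K27ac peaks, in percent (x), for all 1007 domains and for domains holding the start of a member of each gene list (y). Points are domains and bars are medians. Luminal transcription factors have a median of 99.6%, hypoxia-induced genes 90.1% and glycolysis genes 83.1%.

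Of the 5 least covered domains, 1 held a protein-coding start besides ANGPTL4, that of GRAMD2A (42.8%). The lowest coverage, 27.4%, was in a domain of 11276 bp on chromosome 19 (15065718 to 15076993), which held no gene start and lay 5.22 kb from OR1I1. HACL2, the next domain on that chromosome (15122676 to 15134410), was covered by 43.2%. The other 2 of the 5, covered by 27.9 and 28.1%, were on chromosome X in DANT2, the noncoding RNA gene at the DXZ4 macrosatellite, an array of near-identical repeats that binds CTCF, so the placement of reads within it is uncertain. The plot of 6 domains shows this array as evenly spaced normoxia H3K27ac peaks, 9 of them in the wider domain.

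The uncovered bases lay in 1515 stretches. Of these 1050 were at an edge of a domain and summed to 510 kb, and 465 lay inside a domain and summed to 508 kb. Stretches of 5 kb or more numbered 5, among them those at DSP, a desmosomal protein gene (6.75 kb at an edge), near OR1I1 (6.04 kb), in BCAR3 (5.49 kb) and in SMTN (5.27 kb). Hypoxia ZHX2 summits were sparser there, at 0.0579 per kb (0.0441 to 0.0748) against 0.208 (0.201 to 0.215) in the bases acetylated in both conditions. They numbered 0.0275 per kb in the uncovered stretches at edges and 0.0885 in those inside, and WT Flag peaks 0.0471 and 0.122. Hypoxia CTCF summits numbered 0.0471 per kb over all stretches, 0.0628 at edges and 0.0315 inside, against 0.148, and WT Flag peaks over all stretches 0.0845 against 0.169.

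Hypoxia ZHX2 peaks were inside nearly all domains. By summits, 926 of the 1007 (92.0%, 90.1 to 93.6%) held at least 1, against 34.2% of hypoxia H3K27ac peaks of all widths, which are shorter and so have less room for one. Normoxia ZHX2 lay in 552 (54.8%, 51.7 to 57.9%) against 13.9%. Hypoxia CTCF lay in 848 (84.2%) against 34.2%, and normoxia CTCF in 886 (88.0%) against 36.4%. Flag peaks, taken at their midpoints since that list has no summits, lay in 829 (82.3%) for WT against 35.1%, and in 712 (70.7%) for PA against 25.1%. Hypoxia ZHX2, hypoxia CTCF and WT Flag lay together in 725 domains, and 24 domains held none of them.

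Per kb of acetylated chromatin the domains held fewer peaks than H3K27ac peaks of 2 to 5 kb, for all 6 lists. Hypoxia ZHX2 numbered 3395 summits in domains, 0.199 per kb (0.192 to 0.206), against 0.256 (0.251 to 0.261) in H3K27ac peaks of 2 to 5 kb, the densest class, 0.208 (0.202 to 0.213) in those under 2 kb and 0.224 over all widths. Within the domains this density hardly varied with width, at 0.195 per kb in those of 10 to 15 kb and 0.201 in those of 20 kb or more. Normoxia ZHX2 numbered 1171 summits, 0.0687 per kb (0.0648 to 0.0727), against 0.0954 at 2 to 5 kb. CTCF followed width more closely than ZHX2 did. Hypoxia CTCF numbered 0.227 per kb at 2 to 5 kb and 0.142 (0.136 to 0.148) in domains, where it was 0.157 (0.148 to 0.166) at 10 to 15 kb and 0.124 (0.115 to 0.132) at 20 kb or more. Normoxia CTCF numbered 0.158 per kb (0.152 to 0.164) in domains. WT Flag numbered 0.247 per kb at 2 to 5 kb and 0.164 (0.158 to 0.17) in domains, and PA Flag 0.173 and 0.0829 (0.0787 to 0.0874). Within the domains PA Flag also fell with width, from 0.0923 (0.0854 to 0.0996) at 10 to 15 kb to 0.0717 (0.0654 to 0.0784) at 20 kb or more.

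**Figure D3:**
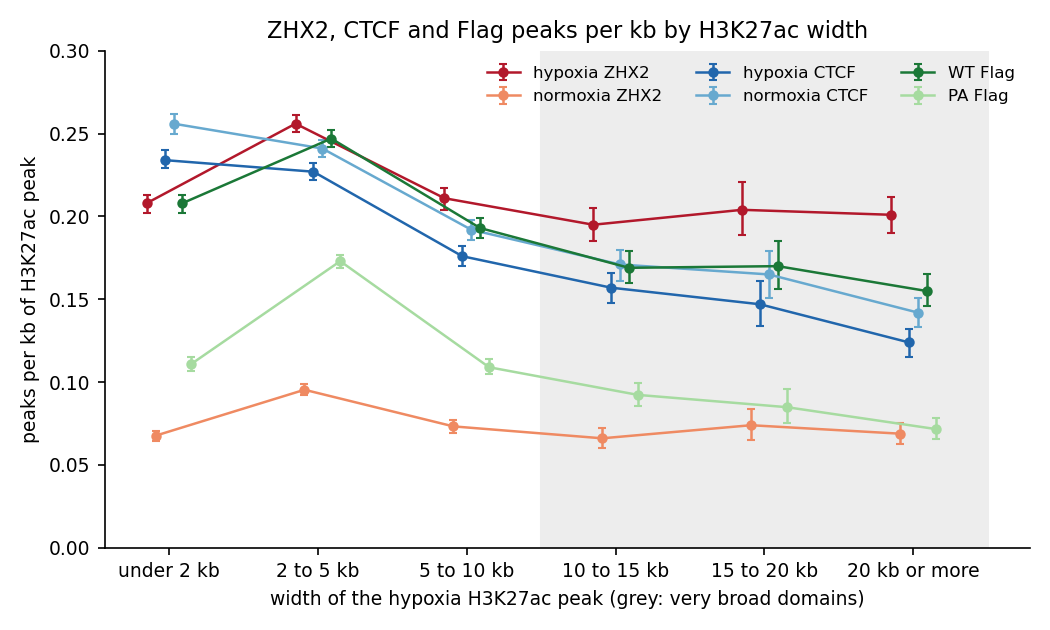
Peaks per kb of H3K27ac peak (y) in 6 width classes of hypoxia H3K27ac peaks (x), for each ZHX2, CTCF and Flag list. Points are densities, bars exact 95% Poisson intervals, and the grey area holds the very broad domains. All lists but CTCF are densest at 2 to 5 kb, and hypoxia ZHX2 is level across the 3 classes of very broad domains, between 0.195 and 0.204.

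More ZHX2 peaks lay in the domains in hypoxia than in normoxia. The count was higher in hypoxia in 831 domains, equal in 150 and lower in 26, and the summed ratio was 2.90. The hypoxia ZHX2 list is also the longer one, by a ratio of 2.22, and the ratio in H3K27ac peaks of all widths was 2.84. With both lists cut to equal length by the authors' score, hypoxia ZHX2 numbered 0.101 per kb (0.0962 to 0.106), above the 0.0687 of normoxia. This cut removed only the lowest-scored hypoxia ZHX2 peaks, and equal-length values for narrower H3K27ac peaks were not computed. Of the full lists, 70.5% of hypoxia and 55.0% of normoxia ZHX2 summits lay in hypoxia H3K27ac peaks of any width. For CTCF the order depended on whether the lists were cut, and the cut removed only the lowest-scored normoxia peaks. Normoxia CTCF peaks in domains had a median authors' fold of 11.4, beside 19 in the whole list. The count was lower in hypoxia in 334 domains, equal in 529 and higher in 144, with a ratio of 0.897 beside 0.876 for the whole lists. At equal length normoxia CTCF numbered 0.129 per kb (0.124 to 0.135), below the 0.142 of hypoxia. WT Flag peaks outnumbered PA Flag peaks in 593 domains, equalled them in 402 and were fewer in 12, with a ratio of 1.98 beside 1.95 for the whole lists. This ratio is of counts. By bases the 2 lists were closer, with WT Flag peaks over 25.5% of the domains' length and PA Flag peaks over 20.9%. The median width of a peak in domains was 909 bp for WT and 2050 bp for PA. Of the PA Flag intervals 94.7% were identical to a WT interval, base for base, and of the WT intervals 48.5% to a PA interval, so these lists are not independent calls.

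ZHX2 peaks in domains were less often near a gene start than those in each class of narrower H3K27ac peaks. The share of bases within 1 kb of a start was not computed for any class, so this comparison does not allow for width. Of the 3395 hypoxia ZHX2 peaks in domains 27.3% (25.8 to 28.8%) were within 1 kb of a gene start, against 42.7% under 2 kb, 62.4% at 2 to 5 kb, 45.3% at 5 to 10 kb and 38.9% of the whole list. They met WT Flag peaks in 68.2% (66.6 to 69.8%) of cases, against 54.2% of the whole list and 80.5% at 2 to 5 kb. They overlapped a normoxia ZHX2 peak in 26.1%, beside 27.4% of the whole list. They overlapped a hypoxia CTCF peak in 44.0% (42.3 to 45.7%), beside 45.6% of the whole list, which includes peaks outside H3K27ac. This CTCF share was lower than in each class of narrower H3K27ac peaks. It was 52.7% at 5 to 10 kb, 61.8% at 2 to 5 kb and 54.3% under 2 kb. Of the normoxia ZHX2 peaks in domains 80.0% (77.6 to 82.3%) overlapped a hypoxia ZHX2 peak. The share was 85% at 5 to 10 kb, 89.2% at 2 to 5 kb, 82.1% (80.3 to 83.9%) under 2 kb and 34.5% outside H3K27ac. The intervals for domains and for peaks under 2 kb overlapped. Of the 2421 hypoxia CTCF peaks in domains 56.6% overlapped a ZHX2 peak, beside 59.4% at 5 to 10 kb, 65.8% at 2 to 5 kb, 44.8% under 2 kb and 3.77% outside H3K27ac. Their median authors' fold was 9.04, beside 9.21, 9.18, 17.1 and 23.1 in the same order.

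Domains with a gene start were the densest. The 586 with a protein-coding start held 0.23 hypoxia ZHX2 summits per kb (0.221 to 0.239), the 332 that only overlapped a gene held 0.157 (0.147 to 0.168) and the 89 apart from genes held 0.129 (0.111 to 0.15). Normoxia ZHX2 numbered 0.0887, 0.0426 and 0.0171 (0.0108 to 0.0256) per kb in the same order, which is 23 summits in the last group beside 174 in hypoxia. Hypoxia CTCF numbered 0.175, 0.0964 and 0.0645, and WT Flag 0.19, 0.13 and 0.0994.

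Peaks were sparser at the edges of the domains than deeper inside. Hypoxia ZHX2 numbered 0.0164 summits per kb (0.0113 to 0.023) in the first kb outside an edge, 0.0899 (0.0773 to 0.104) in the first kb inside and 0.193 over the first 5 kb inside. Hypoxia CTCF numbered 0.0308, 0.0983 and 0.156, WT Flag 0.0338, 0.069 and 0.161, and gene starts 0.00596, 0.0501 and 0.0844. Between 5 and 10 kb outside, hypoxia ZHX2 was at 0.0486 per kb and CTCF at 0.0572, both above their density in the first kb outside. By the rule an edge is where a hypoxia H3K27ac peak ends, and that list covered 5.22% of the first kb outside. It covered 28.1 to 30.9% of the bins between 5 and 10 kb outside. Normoxia ZHX2 was at 0.0214 per kb in the first kb outside and at 0.021 between 5 and 10 kb.

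**Figure D4:**
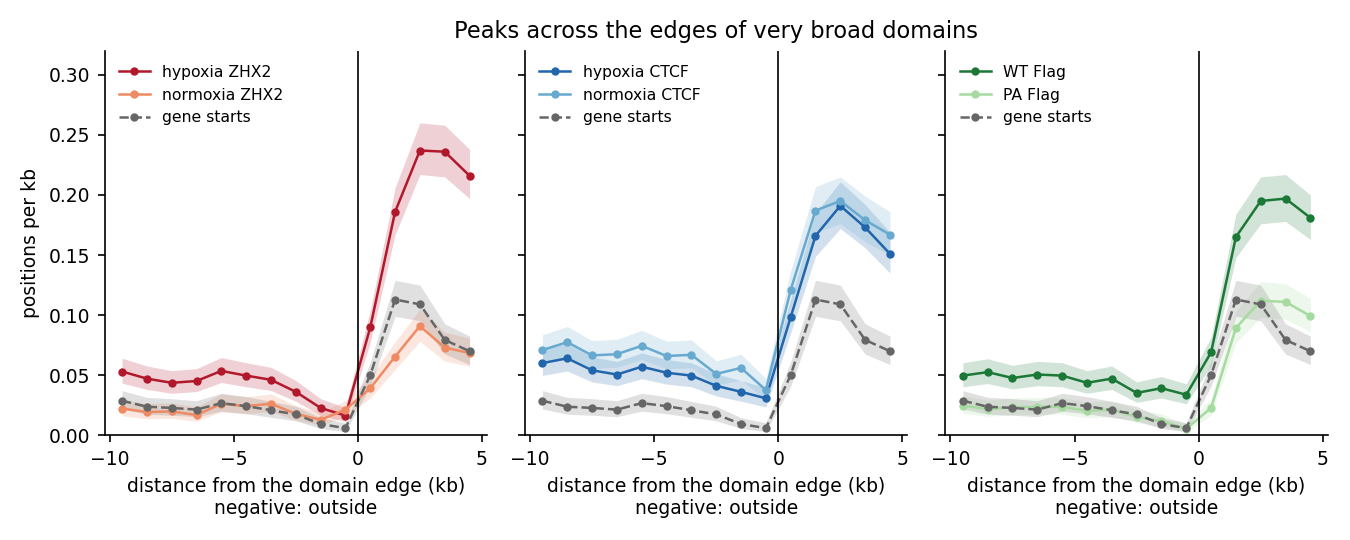
Positions per kb (y) in bins of 1 kb by distance from the nearest edge of a domain in kb (x, negative outside), for ZHX2, CTCF and Flag peaks and for protein-coding gene starts (dashed). Shaded bands are exact 95% Poisson intervals. Hypoxia ZHX2 is at 0.0164 per kb in the bin just outside and at 0.0899 in the bin just inside.

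Across the 1007 domains the authors' H3K27ac fold and the hypoxia ZHX2 density had a Spearman correlation of 0.4, and hypoxia ZHX2 and CTCF densities one of 0.49, given as descriptions of sites that share libraries and base composition. Width and hypoxia ZHX2 density had one of -0.02. The densest domains in hypoxia ZHX2 were both of those in DANT2, with 29 summits in 25952 bp (1.12 per kb) and 10 in 13335 bp (0.75 per kb), SEPTIN9, a cytoskeletal septin gene (9 summits, 0.792 per kb), PFKFB3 (8, 0.694) and TNK2, a tyrosine kinase gene (8, 0.663). In normoxia these held 10, 7, 4, 2 and 2. The domains densest in hypoxia CTCF lay at BHLHE40 (8 summits, 0.618 per kb), EFNA3 (7, 0.583), ACTG1 (7, 0.581), SLBP with TACC3 (7, 0.53) and MIR193BHG (6, 0.526). WT Flag peaks were most numerous at MALAT1 (21, with 9 in PA), at PNPLA2 and CD151 (19, with 10), in the wider DANT2 domain (16, with 14), at CIRBP and MIDN (14, with 7) and in GREB1 (13, with 5).

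The 18 domains of luminal factors held 128 hypoxia ZHX2 summits, 0.233 per kb, beside 0.23 in all domains with a gene start, and 42 in normoxia, 0.0766 per kb, with hypoxia CTCF at 0.162 per kb. FOXA1 held 8 hypoxia and 4 normoxia ZHX2 summits, with 7 and 8 of CTCF. Its hypoxia CTCF peaks ran from an authors' fold of 3.59 to 177, and its hypoxia ZHX2 peaks from 1.79 to 5.67. GATA3 held 15 and 4 ZHX2 summits and 11 of CTCF in each condition, with 10 WT and 3 PA Flag peaks. XBP1 held 9 and 2 ZHX2 summits, and RARA 18 and 3.

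At the 12 hypoxia-induced genes hypoxia ZHX2 numbered 69 summits, 0.322 per kb, beside 0.199 over all domains and 0.23 in those with a gene start, and normoxia ZHX2 19, 0.0885 per kb. Other lists held hypoxia ZHX2 at a similar or higher density, with abundantly transcribed genes at 0.306, immediate early genes at 0.331, chromatin regulators at 0.347, long noncoding RNA genes at 0.375 and HOX genes, in 2 domains, at 0.498 per kb. Hypoxia CTCF numbered 0.219 per kb and WT Flag 0.214. KDM4B held 13 hypoxia and 4 normoxia ZHX2 summits, SLC16A3 10 and 6, STC2 8 and 0, ALDOA 6 and 1, ENO1 5 and 1, BHLHE40 5 and 1, ANGPTL4 4 and 0, and HILPDA 1 and 0. KDM4B held 6 WT Flag peaks and 0 PA Flag peaks, and 121 of all 1007 domains held WT but no PA Flag peaks. SLC16A3 went the other way, with 1 WT and 3 PA Flag peaks. In ALDOA the 6 hypoxia ZHX2 summits all lay under normoxia H3K27ac peaks as well. The stretch of 3.92 kb acetylated in hypoxia alone held 0 ZHX2 and 0 CTCF summits. It held the midpoint of 1 Flag interval, which was identical in WT and PA. This interval measured 8497 bp and reached beyond the stretch on both sides.

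**Figure D5:**
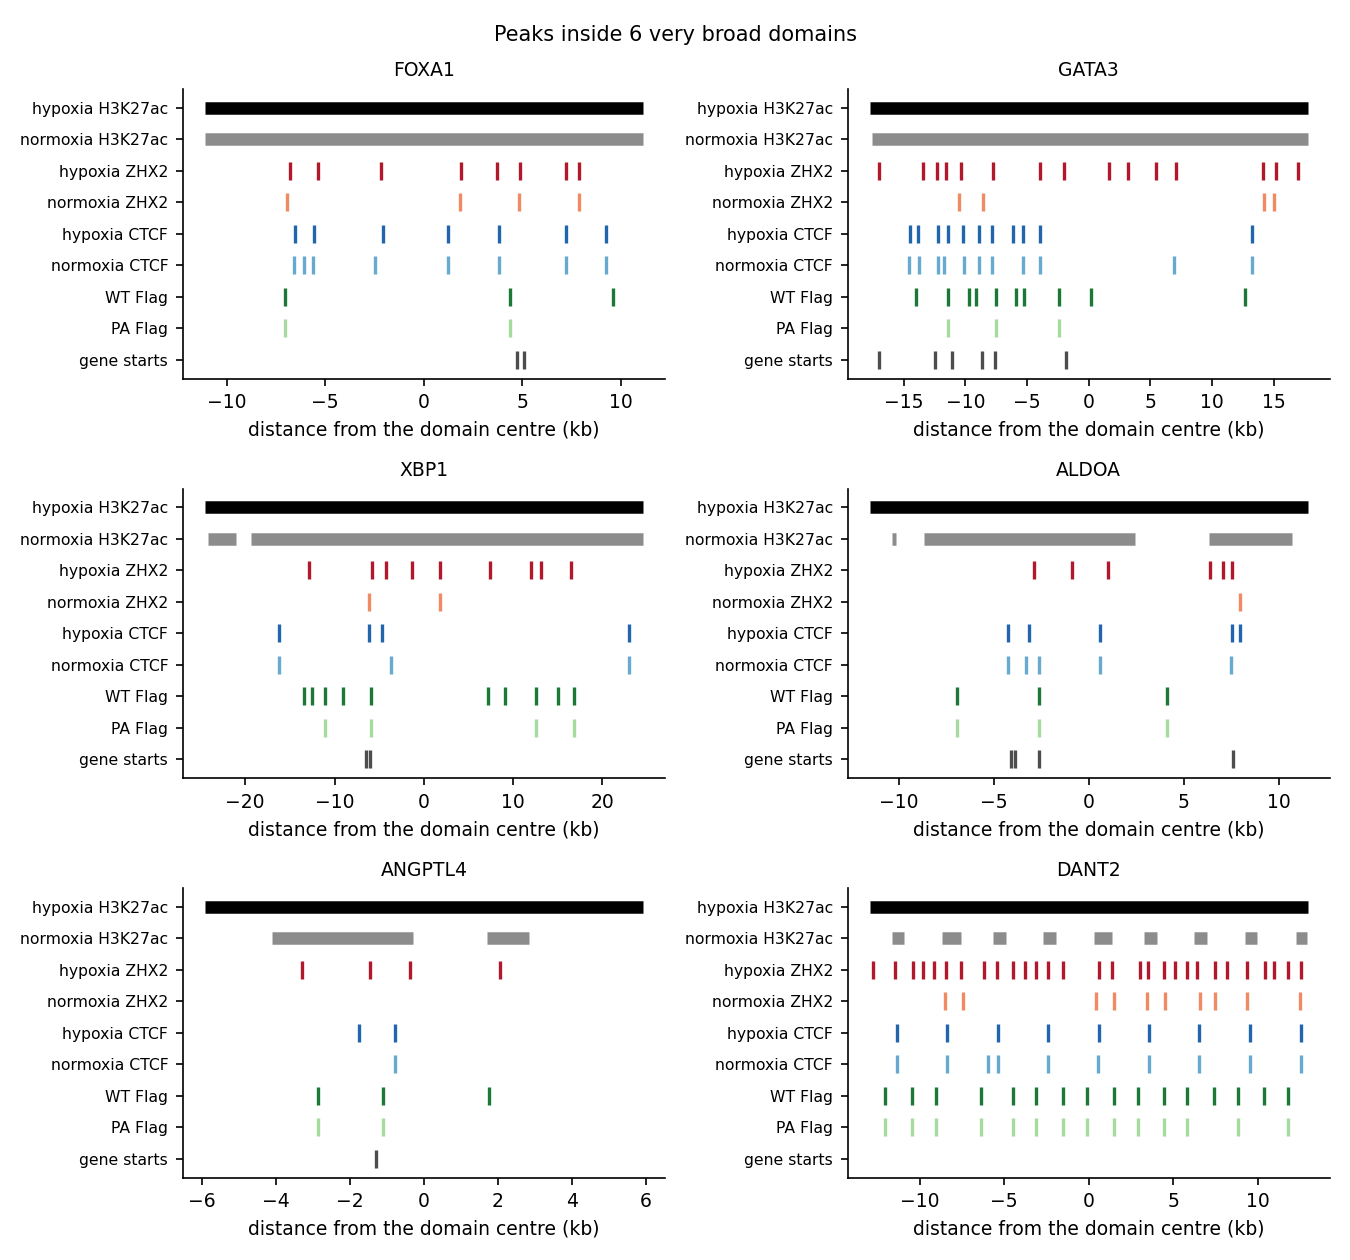
Peaks inside 6 domains by distance from the domain centre in kb (x), 1 track per list (y). Bars are H3K27ac peaks clipped to the domain, ticks are ZHX2 and CTCF summits, Flag midpoints and protein-coding gene starts. FOXA1, GATA3 and XBP1 are filled or nearly filled by normoxia H3K27ac, ALDOA and ANGPTL4 in part, and DANT2 (the wider of its 2 domains) holds 9 separate normoxia H3K27ac peaks and 29 hypoxia ZHX2 summits.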

How the data were processed

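The 28 samples were grouped by titles and antibody labels, 16 of them immunoprecipitated and 12 without antibody. Each immunoprecipitated group had 1 list of peaks, 8 in all. The tools cutadapt, Bowtie2 and MACS2 and the build GRCh38 (hg38) are those named in the submitters' processing notes. Versions, depth, the use of inputs and any pooling of samples are not given in the sources used here, and the error of a single peak is therefore unknown. The deposited score, the fold enrichment (a ratio over background) and the −log10 q of each peak were computed by the authors.

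Chromosomes 1 to 22 and X were used, and 0 columns of other samples were found. ZHX2 and CTCF peaks were placed by summit and Flag peaks by midpoint. Densities have exact Poisson and shares exact Clopper-Pearson 95% intervals. Python 3.11.15, pandas 2.3.3, numpy 2.4.6, scipy 1.17.1 and matplotlib 3.10.9 were used, and the counting steps were tested on simulated data.

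Gene positions and promoter sequences came from RefSeq GRCh38.p14 tables. Of 19974 protein-coding genes 15812 had a start there, and for the other 4162 either annotated end was taken as the start. No genome sequence was used here. Genes were named as the 10 widest domains, the 5 first by authors' fold, by least normoxia coverage, by hypoxia ZHX2 or CTCF density and by WT Flag count, up to 6 members per gene list, the luminal factors outside domains and 3 domains on each side of 10 kb. SLC2A1, MIR210HG, HIF1A-AS3, HACL2, the genes at the longest uncovered stretches and further list members outside or inside domains were named after their values were seen. A few genes named by these rules are not reported here. Domains and gene lists were chosen with earlier results of these data known.

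Alternatives were minimum widths of 8 and 15 kb, H3K27ac peaks within 1 kb merged, a −log10 q of at least 5, any overlap, lists of equal length, and gene starts within 1 kb or gene bodies. Others, without the DANT2 domains or with table starts alone, were added after seeing the data.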

Additional observations from a re-analysis of the deposited data

How the results depend on the processing

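With a minimum width of 8 kb there were 1616 domains and 89.2% held a hypoxia ZHX2 summit. With 15 kb there were 408, with 365 genes, a normoxia partner of that width in 76.7%, a hypoxia ZHX2 summit in 96.3%, and 0.131 hypoxia CTCF, 0.149 normoxia CTCF and 0.076 PA Flag peaks per kb. With H3K27ac peaks within 1 kb merged, ZHX2 numbered 0.184 per kb in hypoxia and 0.0645 in normoxia. At a −log10 q of at least 5 these were 0.147 and 0.0443, and 85.8% of domains held a hypoxia ZHX2 summit. With lists of equal length hypoxia ZHX2 numbered 0.101 and normoxia CTCF 0.129 per kb, so the order of the CTCF conditions turned. The other densities, shares and counts of domains and of all genes stayed within their intervals or within 1.5 times, while 7 of the 12 hypoxia-induced genes remained at 15 kb, beside 17 of 18 luminal factors. With table starts alone, chosen after seeing the data, these lists had 9 and 16, oestrogen receptor targets 7 of 11, immediate early genes 3 of 7, long noncoding RNA genes 4 of 8, signalling genes 2 of 4, and keratins and HOX genes 0 of 5 each. Without the DANT2 domains, an alternative chosen after seeing the data, hypoxia ZHX2 numbered 0.197 per kb. No paired analysis was possible because each group had 1 list without values per sample, so no replicate could be left out either. Depth was not given, so a peak in 1 list alone may lie just under the threshold of the other.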
